A study of Mus musculus with 40 samples.

Results

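Livers of germ-free male C57BL/6 mice that received delta-valerobetaine (VB) for 6 weeks on a control diet were compared with livers of germ-free male C57BL/6 mice that received vehicle on the same diet for the same time.
The 10 mice, 5 with VB and 5 with vehicle, were chosen by the diet and treatment in their labels, and make up 10 of the 20 mice and 20 of the 40 sequenced libraries of the series, because each mouse was sequenced in 2 lanes.
The other 10 mice, 5 with VB and 5 with vehicle, had a Western diet, and enter here through the shared estimate of the spread and the comparison between diets.
Of the libraries of Western diet VB mouse 1, the first is titled as VB and has vehicle as its treatment label; the title was used.
Its counts differed from those of the other lane of that mouse by 1.38 times the chi-square expected from counting, against 24.2 to 128 times from the lanes of other mice.
All mice were 64 days old and all lacked a gut microbiota. The library names call the vehicle of the control diet mice PBS, and those of the Western diet vehicle mice name no vehicle.
The labels give neither the hour of tissue collection nor the dose, the route or the cage of each mouse. The library numbers put all control diet vehicle mice before all control diet VB mice, so library order and treatment cannot be told apart. The library names also take a different form on each diet.
Gene expression was measured by sequencing of messenger RNA from whole liver, as read counts for 32544 genes, of which 12616 had enough counts to be tested and were all examined.
The control diet mice had 18126657 to 23202394 counts each. In bulk liver, fewer cells of a type and less RNA per cell cannot be told apart.

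VB is a trimethylated amino acid derivative that gut bacteria make, so germ-free mice lack that source, and it resembles gamma-butyrobetaine, the direct precursor of carnitine.
Carnitine carries long-chain fatty acids into mitochondria for oxidation, and the liver both makes and takes up carnitine.
The liver also runs a strong circadian programme: a complex of BMAL1 (encoded by Arntl) with CLOCK or NPAS2 binds E-box motifs and switches on the Per, Cry, Nr1d and Ciart repressors and output factors such as DBP and TEF, which act at D-box motifs, and the repressors then switch the complex off.
Heat shock protein genes are switched on by heat shock factors, which bind repeated GAA units.

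Few liver genes passed the main test of VB against vehicle on the control diet.
Of the 12616 genes, 19 passed an adjusted p under 0.05 (edgeR quasi-likelihood test, Benjamini-Hochberg adjustment over all genes), which is 0.151% of those tested.
With VB, 7 rose (0.0555% of genes tested) and 12 fell (0.0951%).
The 7 that rose were the clock repressor Ciart, the clock output genes Tef and Upp2, the mitophagy receptor Bnip3, the trafficking gene Sec22c, the transglutaminase Tgm1 and the beta-catenin cofactor Bcl9l.
The 12 that fell were the clock activator Npas2, the chaperone Hspa1a, the sodium-proton exchanger Slc9a9, the splicing factor kinase Clk1, the linker histone Hist1h1c, the transcriptional cofactor Cited2, the ubiquitin ligase Rnf125, the kinase Cdk20, the phosphatase Phospho1, the acrosin-binding Acrbp, Rsrp1 and Pxdc1. An unadjusted p under 0.05 was reached by 1354 genes, 10.7% of those tested, with 715 higher in VB (5.67%) and 639 lower (5.06%).
All 5 VB mice lay above all 5 vehicle mice for 236 genes (1.87%) and below them for 254 (2.01%).
Most changes were small: the median absolute log2 change over all genes was 0.14, against a median fitted standard error of 0.157.
A change past 2-fold was estimated for 165 genes, 8 of them among the 19.

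The count of 19 depended on the tool and on single mice.
DESeq2 called 163 genes, 82 higher and 81 lower in VB, among them all 19, and limma-voom with quality weights called 261.
The directions were more even in a pair of scalings: 14 rose and 15 fell with upper-quartile scaling, and 16 rose and 14 fell with the Mup genes kept out of the library sizes.
With RLE scaling 7 rose and 12 fell, as with TMM.
With 1 mouse left out, the count was 10 without VB mouse 3, 8 without VB mouse 4, 6 without vehicle mouse 1, 11 without vehicle mouse 3 and 66 without vehicle mouse 5.
Without any 1 of the other 5 mice it was 14 to 27.
All 19 genes kept the sign of their change in all 10 of these fits.
Ciart, Sec22c, Slc9a9, Hspa1a and Rsrp1 also kept an edgeR adjusted p under 0.05 in each of them, with the highest at 0.0404, 0.0269, 0.0452, 0.0480 and 0.0452 in that order.
Of these 5, Hspa1a lost the call in a fit of the 10 control diet mice alone (edgeR adjusted p = 0.0592) and with lane 2 only (0.0580).
The remaining 14 lost the call without at least 1 mouse, and for all of them except Tef the highest adjusted p came without vehicle mouse 1: 0.184 for Bnip3 and Bcl9l, 0.116 for Pxdc1, 0.112 for Npas2, 0.110 for Phospho1, 0.108 for Upp2, Cdk20 and Acrbp, 0.100 for Rnf125, and 0.0654 for Tgm1, Cited2, Clk1 and Hist1h1c.
Tef had its highest, 0.0529, without vehicle mouse 3. The number of genes with an unadjusted p under 0.05 also moved with the fit. Without vehicle mouse 1 it was 453 higher and 433 lower of 12740, and without vehicle mouse 5 it was 931 and 732 of 12744. In a fit of the 10 control diet mice alone it was 1048 higher and 1054 lower of 12168. List counts from these fits stand beside these totals.

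On the first principal component of the 500 most variable genes, which held 22.4% of their variance, all VB mice had negative values (-13.5 to -6.25) and all vehicle mice positive ones (4.05 to 19.9).
Vehicle mice 1 and 3 lay farthest out, at 19.9 and 15.3.
The counts of the lanes of a mouse differed by 1.35 to 1.49 times the chi-square expected from counting, against 19.9 to 60.0 times between mice of a group, so the lanes were summed and each mouse is 1 replicate.

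**Figure D1:**
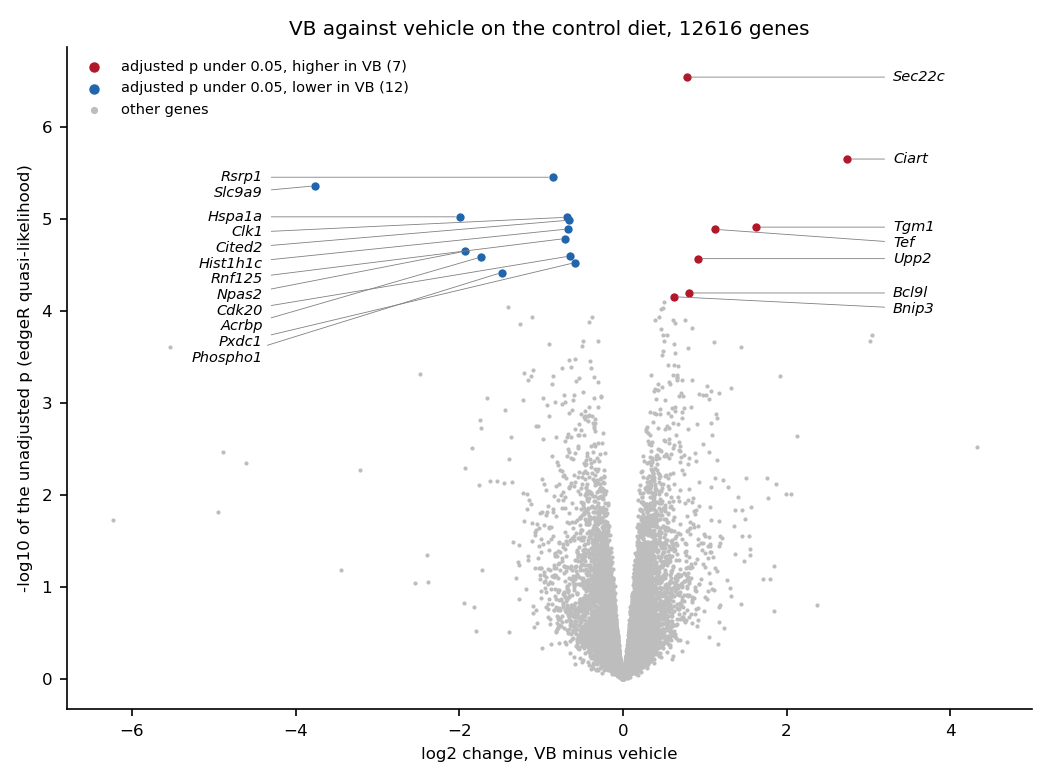
Log2 change (VB minus vehicle, x axis) against -log10 of the unadjusted p from edgeR (y axis) for the 12616 genes tested on the control diet, with genes of adjusted p under 0.05 in colour. The 7 genes higher and the 12 genes lower in VB are named, and Slc9a9 and Ciart have the largest changes among them.

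The promoters of 4 genes that rose and of both inducible heat shock protein genes are shown because their motifs belong to the pathways above: an E-box before the starts of Ciart, Tef, Sec22c and Bnip3, and a heat shock unit before Hspa1a, which fell, and before its neighbour Hspa1b, which did not pass the test. Each line gives the 250 bases before an annotated start from RefSeq on GRCm38.p6, 5′ to 3′ on the gene's strand, with CACGTG in capitals for Ciart (chr3:95882229-95882478, minus strand), Tef (chr15:81802423-81802672 and chr15:81811164-81811413, plus strand, at 2 starts), Sec22c (chr9:121705030-121705279, minus strand) and Bnip3 (chr7:138909507-138909756, minus strand), and GAANNTTC in capitals for Hspa1a (chr17:34972157-34972406, minus strand) and Hspa1b (chr17:34959239-34959488, minus strand).
Ciart: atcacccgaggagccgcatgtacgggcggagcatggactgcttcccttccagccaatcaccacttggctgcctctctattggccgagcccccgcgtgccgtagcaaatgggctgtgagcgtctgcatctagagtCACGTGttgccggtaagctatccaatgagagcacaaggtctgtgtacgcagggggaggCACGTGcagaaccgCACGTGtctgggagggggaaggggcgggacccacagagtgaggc
Tef, upstream start: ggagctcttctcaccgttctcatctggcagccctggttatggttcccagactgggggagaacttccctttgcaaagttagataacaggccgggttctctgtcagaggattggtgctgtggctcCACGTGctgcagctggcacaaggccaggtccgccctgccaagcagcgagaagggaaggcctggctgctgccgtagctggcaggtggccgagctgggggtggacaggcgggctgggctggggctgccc
Tef, downstream start: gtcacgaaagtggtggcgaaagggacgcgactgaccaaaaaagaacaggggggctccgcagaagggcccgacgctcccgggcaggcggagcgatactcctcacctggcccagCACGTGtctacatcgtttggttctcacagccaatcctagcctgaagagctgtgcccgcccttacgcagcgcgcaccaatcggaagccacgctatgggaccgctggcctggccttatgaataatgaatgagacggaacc
Sec22c: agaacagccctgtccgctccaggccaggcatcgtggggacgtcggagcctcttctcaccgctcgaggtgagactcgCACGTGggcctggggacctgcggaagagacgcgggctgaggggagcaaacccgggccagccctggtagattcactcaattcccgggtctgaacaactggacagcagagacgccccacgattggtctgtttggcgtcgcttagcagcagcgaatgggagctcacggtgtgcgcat
Bnip3: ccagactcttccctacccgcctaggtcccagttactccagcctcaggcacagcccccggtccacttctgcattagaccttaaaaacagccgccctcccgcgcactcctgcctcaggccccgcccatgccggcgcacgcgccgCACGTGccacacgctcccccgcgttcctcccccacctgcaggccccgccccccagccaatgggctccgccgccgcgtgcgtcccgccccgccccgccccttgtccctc
Hspa1a: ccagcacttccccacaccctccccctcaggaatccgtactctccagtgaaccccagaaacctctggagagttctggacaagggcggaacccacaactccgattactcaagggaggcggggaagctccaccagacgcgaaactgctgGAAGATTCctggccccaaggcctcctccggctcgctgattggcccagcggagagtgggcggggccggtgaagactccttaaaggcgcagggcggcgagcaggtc
Hspa1b: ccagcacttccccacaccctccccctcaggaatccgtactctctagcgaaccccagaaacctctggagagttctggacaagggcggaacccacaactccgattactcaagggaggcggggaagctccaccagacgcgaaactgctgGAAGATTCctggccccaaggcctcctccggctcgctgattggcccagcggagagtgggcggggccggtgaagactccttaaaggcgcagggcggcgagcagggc

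Ciart has 3 E-boxes in this stretch, starting 116, 58 and 44 bases before the start, and each of the others has 1.
Over the window from 250 bases before to 50 after the start, CACGTG (its own reverse complement) is in 7.15% of all 32851 RefSeq promoters, counted by start, and in 8.09% of genes.
It is in 4 of the 6 genes that rose and have a promoter in the table, namely Ciart, Tef, Sec22c and Bnip3, and in 3 of the 9 genes that fell and have one, namely Cited2, Cdk20 and Phospho1.
The D-box motifs TTATGTAA and TTACGTAA, read on both strands, are in 1.06% of promoters, in 1.23% of genes and in none of these 15.
The heat shock unit GAANNTTC or TTCNNGAA is in 15.1% of promoters, in 8 of 10 heat shock chaperone genes with a promoter in the table, and among the called genes in Hspa1a alone.
The Hspa1a and Hspa1b stretches are identical at 247 of 250 bases, and both carry the unit 104 bases before the start.
Motif matches describe these windows and were not tested.

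Of the 7 genes that rose, 3 belong to the clock lists. Ciart encodes a repressor of the BMAL1 complex and had the largest rise among the 19. Its expression was 15.5, 9.57, 5.33, 5.22 and 7.86 CPM in VB mice, against 0.31, 1.79, 1.18, 1.58 and 1.58 CPM in vehicle mice.
CPM are counts scaled to library size after trimmed mean normalization (TMM), and values are given throughout in the order of mice 1 to 5 of a group.
Every VB mouse was above every vehicle mouse, with vehicle mouse 1 lowest and VB mouse 1 highest (log2 change 2.74, SE 0.41, edgeR adjusted p = 0.0139, 6.70-fold).
Tef, a factor that binds D-boxes, had 87.3, 75.8, 68.3, 61.1 and 63.3 CPM in VB mice, against 17.8, 29.4, 32.8, 45.9 and 37.2 CPM in vehicle mice.
The groups did not overlap, and vehicle mouse 1 was again the lowest (log2 change 1.12, SE 0.20, edgeR adjusted p = 0.0165).
Upp2, a liver uridine phosphorylase, had 327, 389, 231, 277 and 293 CPM in VB mice, against 114, 159.9, 127, 199 and 203 CPM in vehicle mice, with no overlap (log2 change 0.92, SE 0.17, edgeR adjusted p = 0.0229).
On the other side of the loop, Npas2, which pairs with BMAL1 in place of CLOCK, had 1.25, 1, 1.45, 2.59 and 2.1 CPM in VB mice, against 9.5, 7.93, 5, 3.39 and 6.22 CPM in vehicle mice.
All VB mice were below all vehicle mice, with vehicle mouse 4 nearest to them (log2 change -1.93, SE 0.36, edgeR adjusted p = 0.0229).

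The rest of the clock lists was searched gene by gene. Their members were picked from knowledge of the clock and with earlier results of these data known, so the counts describe and were not tested.
Of 11 clock repressors, 6 reached an unadjusted p under 0.05 as higher in VB (Ciart, Per1, Cry2, Nr1d2, Per3 and Nr1d1) and 2 as lower (Nfil3 and Cry1), against 5.67% and 5.06% of all genes, and their median log2 change was 0.62.
Of 10 clock output genes, 6 were higher at that level (Tef, Upp2, Por, Dbp, Usp2 and Hlf) and none lower, with a median of 0.73.
Of 6 clock activators, 5 had a lower mean in VB and 1, Npas2, passed.
The median over all 12616 genes was 0.002. Dbp, an output factor of the same family as Tef, had 33.9, 46.4, 33.1, 14.9 and 22.7 CPM in VB mice, against 0.362, 0.788, 1.07, 12 and 3.85 CPM in vehicle mice.
The groups did not overlap, but vehicle mice 4 and 5 were well above the other 3 vehicle mice, and the edgeR test did not call it (log2 change 3.03, SE 0.644, adjusted p = 0.0654), while DESeq2 did (adjusted p = 0.00206).
Per3, a repressor, had 1.52, 2.56, 2.2, 1.74 and 1.33 CPM in VB mice, against 0.362, 0.788, 0.86, 1.4 and 0.264 CPM in vehicle mice, and VB mouse 5 was just below vehicle mouse 4 (log2 change 1.33, SE 0.34, edgeR adjusted p = 0.102, DESeq2 adjusted p = 0.0114).

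The other core genes did not pass in edgeR, while DESeq2 called 5 repressors as higher, Ciart included, and 1 as lower.
Per1 had log2 change 0.63 (SE 0.14) and edgeR adjusted p = 0.0658 (DESeq2 0.00938), Nr1d1, which encodes REV-ERB alpha, had 0.98 (SE 0.42) and 0.42, and Per2 had 0.30 (SE 0.20) and 0.618.
Nr1d1 ran from 73.1 to 104 CPM in VB mice, against 16.7 to 99.5 CPM in vehicle mice, with vehicle mouse 4 inside the VB range.
Nfil3, a repressor that opposes DBP and TEF at D-boxes, had 38.4, 26.3, 31.6, 41 and 30.2 CPM in VB mice, against 66.9, 60.4, 39.1, 49.6 and 49.1 CPM in vehicle mice (log2 change -0.66 (SE 0.16), edgeR adjusted p = 0.0812, DESeq2 adjusted p = 0.0114), and the highest VB mouse was above the lowest vehicle mouse.
Cry1 had log2 change -0.50 (SE 0.16) with adjusted p = 0.256, Arntl -0.59 (SE 0.30) with 0.494 and Clock -0.08 (SE 0.11) with 0.822.
Arntl averaged 13.6 ± 2.22 CPM in VB mice and 20.5 ± 4.07 CPM in vehicle mice (SD, n = 5 each), and vehicle mouse 3 lay inside the VB range.
Usp2, a deubiquitinase whose messenger cycles in liver, had 33.3, 18.9, 12, 16.4 and 17.1 CPM in VB mice, against 5.48, 6.72, 8.38, 7.69 and 7.59 CPM in vehicle mice, with no overlap (log2 change 1.44 (SE 0.32), edgeR adjusted p = 0.0665, DESeq2 adjusted p = 0.000439).

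The 27 clock genes were also put on 1 axis, the first principal component of their log2 CPM over all 20 mice, which held 57.1% of their variance.
On this clock score the VB mice averaged -0.20 ± 0.23 and the vehicle mice -1.30 ± 0.37 (SD, n = 5 each), on the control diet, with no overlap (-0.518 to 0.0512 in VB mice, against -1.82 to -0.869 in vehicle mice).
On the Western diet the VB mice averaged 0.19 ± 0.42 and the vehicle mice 1.31 ± 0.19, so the VB groups of both diets lay between the vehicle groups.
Gene by gene, both VB means lay between the vehicle means of the 2 diets for 18 of the 27 clock genes and for 24.1% of all genes tested.
A score made from the genes it describes gets no test.
An edgeR fit that also held each mouse's clock score called 0 genes, with 261 higher and 318 lower in VB at an unadjusted p under 0.05, and DESeq2 was not run with it.
Among the lists with the score in the fit, 1 of 11 repressors and 0 of 10 output genes were higher at that level, 0 of 19 male-biased and 0 of 30 ribosomal genes lower, and 16 of 25 cholesterol genes lower.
The signs of 18 of the 19 stayed, and Npas2, itself in the score, came to a log2 change of 0.01.
Over the 19 genes, the median absolute log2 change was 0.71 with the score in the fit and 0.86 without it, and the median standard error 0.22 and 0.17.
Because the score separates the groups, its part in the other changes and that of VB cannot be told apart, and the hour of collection is not in the labels.

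**Figure D2:**
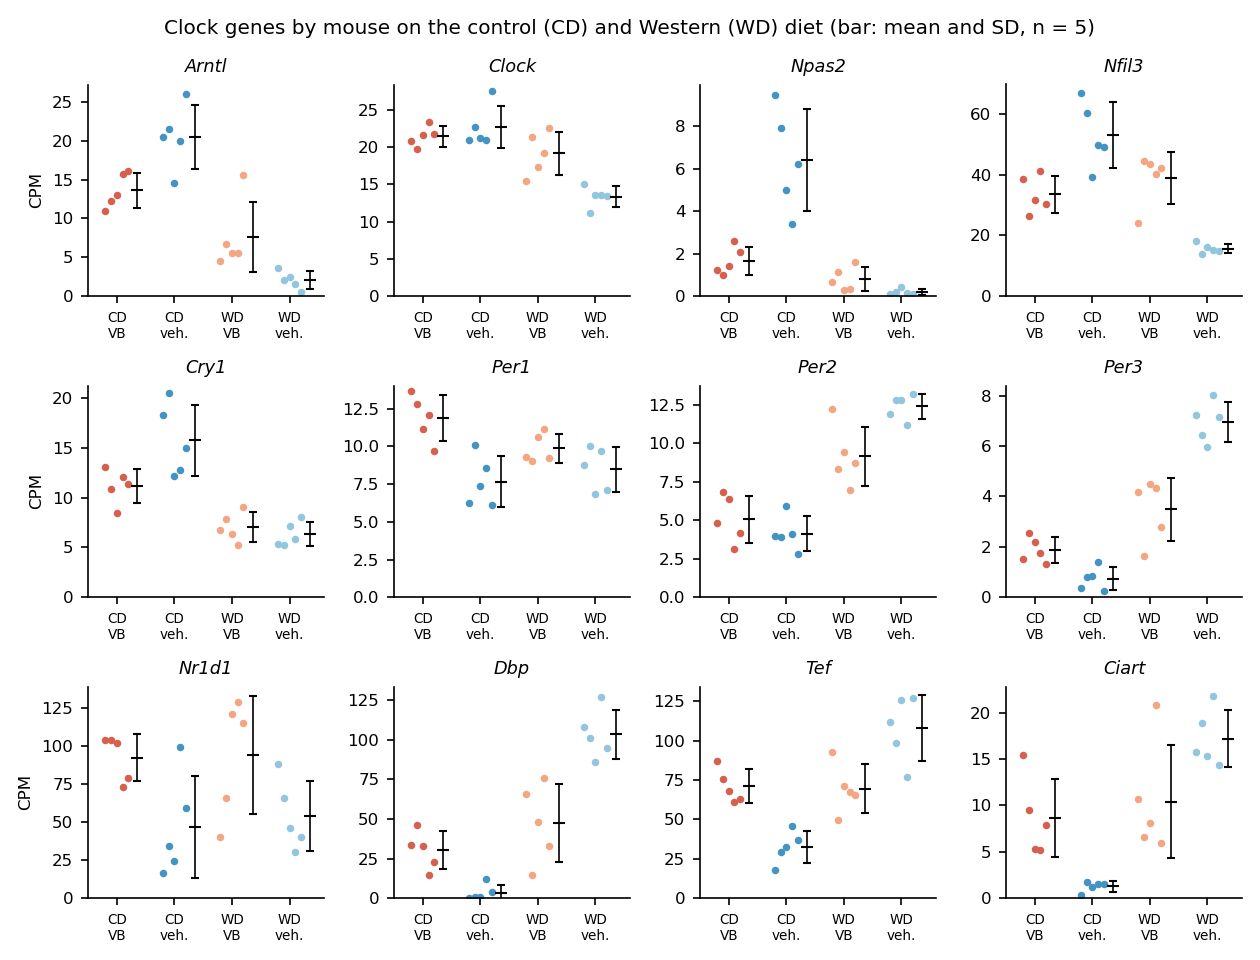
Expression in CPM (y axis, from 0) of 12 clock genes in each mouse of the control diet (CD) and Western diet (WD) groups, VB left of vehicle, with mean and SD (n = 5). Npas2 is lower, and Ciart and Tef are higher, in all 5 control diet VB mice than in all 5 control diet vehicle mice, and on the Western diet the VB means of Npas2, Ciart and Tef lie on the other side of their vehicle means.

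Of the other 4 genes that rose, Sec22c had the smallest adjusted p in the whole comparison.
Sec22c, which encodes a protein of traffic between the endoplasmic reticulum and the Golgi, had 8.84, 11.3, 9.88, 10.1 and 10.4 CPM in VB mice, against 5.58, 5.41, 5.53, 6.47 and 6.43 CPM in vehicle mice.
Both groups were tight and apart (log2 change 0.78, SE 0.11, edgeR adjusted p = 0.00366).
Bnip3, an outer mitochondrial membrane receptor for mitophagy, had 271, 275, 274, 311 and 297 CPM in VB mice, against 141, 193, 169, 195 and 233 CPM in vehicle mice, again with no overlap (log2 change 0.62, SE 0.13, edgeR adjusted p = 0.0467).
In the hypoxia and mitophagy list, 2 of 11 tested genes were higher and 2 lower at an unadjusted p under 0.05, and Bnip3 alone was called; without vehicle mouse 5 the 2 higher became 1.
Tgm1, a transglutaminase best known from the skin barrier, had 2.1, 5.24, 8.08, 7.15 and 3.02 CPM in VB mice, against 1.65, 1.84, 1.61, 1.54 and 1.63 CPM in vehicle mice.
The vehicle mice lay within a narrow band, while the VB mice spread widely, with VB mice 1 and 5 near the vehicle mice (log2 change 1.63, SE 0.29, edgeR adjusted p = 0.0165).
Bcl9l, a cofactor of beta-catenin in Wnt signalling, had 10.1, 11.3, 14.5, 11.4 and 15 CPM in VB mice, against 6.1, 5.94, 5.64, 7.69 and 10.2 CPM in vehicle mice, and vehicle mouse 5 was above VB mouse 1 (log2 change 0.81, SE 0.16, edgeR adjusted p = 0.0449).

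Slc9a9 showed the largest fall among the 19.
It encodes a sodium-proton exchanger of endosomes and had 0, 0.2, 0.118, 0.282 and 0.0914 CPM in VB mice, against 2.48, 2.31, 2.42, 1.27 and 1.32 CPM in vehicle mice, which are 0, 5, 3, 6 and 2 counts with VB, against 48, 44, 45, 28 and 25 counts with vehicle.
All VB mice were at or near 0 (log2 change -3.77, SE 0.62, edgeR adjusted p = 0.0139), and at these counts the size of the fold is imprecise.
Acrbp, named for binding acrosin in sperm, was also scarce, with 0.446, 0.44, 0.353, 0.329 and 0.32 CPM in VB mice, against 1.5, 1.21, 1.45, 1.36 and 0.844 CPM in vehicle mice, and its groups did not overlap (log2 change -1.73, SE 0.33, edgeR adjusted p = 0.0229).
Phospho1, a phosphatase that acts on phosphocholine and phosphoethanolamine, had 0.58, 0.881, 1.29, 2.12 and 1.87 CPM in VB mice, against 4.18, 4.36, 4.19, 3.39 and 2.69 CPM in vehicle mice (log2 change -1.48, SE 0.29, edgeR adjusted p = 0.0285).
Its groups were apart, and its locus overlaps Zfp652 and Abi3, whose log2 changes were -0.04 and -0.10.

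Hspa1a, an inducible heat shock chaperone of the HSP70 family, had 2.41, 1.88, 1.61, 0.47 and 0.549 CPM in VB mice, against 5.11, 7.83, 6.88, 4.93 and 3.16 CPM in vehicle mice. All VB mice were below all vehicle mice, and VB mice 4 and 5 were lowest (log2 change -2.0, SE 0.35, edgeR adjusted p = 0.0165, and 0.0592 in a fit of the 10 control diet mice alone).
Its near-identical neighbour Hspa1b had 77.7, 32.9, 78.3, 17.8 and 26.2 CPM in VB mice, against 69.4, 53.7, 66, 69.8 and 60.1 CPM in vehicle mice.
VB mice 1 and 3 were above all vehicle mice and the other 3 VB mice below them, so that Hspa1b did not pass (log2 change -0.45, SE 0.38, edgeR adjusted p = 0.714).
Reads that fit both genes could have been counted to either, and the division of such reads is not given in the sources used here.
Hspa1a made up 2.01% to 5.41% of the summed CPM of the pair in VB mice, against 5.00% to 12.7% in vehicle mice, and the sum itself was 18.3 to 80.1 CPM in VB mice, against 61.6 to 74.8 CPM in vehicle mice. Of 14 heat shock chaperone genes, 2 were lower at an unadjusted p under 0.05, Hspa1a and Dnajb1 (log2 change -0.34 (SE 0.15), edgeR adjusted p = 0.416), none was higher, and the median log2 change was -0.05.
The 2 became 1 without vehicle mouse 1.
Hsph1 had log2 change 0.08 (SE 0.17).
The co-chaperone Bag3 had 21.2, 16.5, 16.9, 12.8 and 14.1 CPM in VB mice, against 23.9, 21.9, 24.8, 21.5 and 21.5 CPM in vehicle mice, with no overlap, but did not pass in edgeR (log2 change -0.48 (SE 0.13), adjusted p = 0.128; DESeq2 adjusted p = 0.0491).
The first component of the 14 chaperone genes averaged -0.20 ± 0.93 in VB mice and 0.33 ± 0.28 in vehicle mice (SD, n = 5 each), with a wide spread among VB mice.

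The largest of the remaining falls was that of Rsrp1, an arginine- and serine-rich protein gene, with 119, 147, 186, 129 and 131 CPM in VB mice, against 276, 305, 272, 268 and 174 CPM in vehicle mice.
Vehicle mouse 5 was far below the other vehicle mice and lay below VB mouse 3 (log2 change -0.86, SE 0.14, edgeR adjusted p = 0.0139).
Clk1, a kinase that phosphorylates SR splicing factors, had 13.4, 13.1, 14.2, 13.5 and 13.9 CPM in VB mice, against 27.7, 22.9, 20.04, 22.8 and 16.2 CPM in vehicle mice.
The VB mice were almost equal and all below the vehicle mice (log2 change -0.69, SE 0.12, edgeR adjusted p = 0.0165).
Of 19 genes of CLK kinases and SR splicing factors, 4 were lower at an unadjusted p under 0.05 (Clk1, Tra2b, Srsf11 and Srsf2), none was higher, and the median log2 change was -0.17.
Hist1h1c, a linker histone, had 21.3, 21.4, 24.6, 21.2 and 20.6 CPM in VB mice, against 36.2, 40.4, 37.9, 25.5 and 33.9 CPM in vehicle mice, with no overlap (log2 change -0.67, SE 0.12, edgeR adjusted p = 0.0165).
Of 11 histone genes tested, 10 had a lower mean in VB and 3 an unadjusted p under 0.05 (Hist1h1c, Hist1h4h and Hist2h2aa1).
The 3 became 1 without vehicle mouse 1, where Hist1h1c was not called, and 5 in a fit of the 10 control diet mice alone.

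Cited2, a cofactor that binds CBP-type acetyltransferases, had 18.1, 17.9, 14.4, 13.7 and 15.7 CPM in VB mice, against 27, 24.8, 26.1, 25.4 and 22.6 CPM in vehicle mice. The groups were clearly apart (log2 change -0.66, SE 0.12, edgeR adjusted p = 0.0165).
Rnf125, a ubiquitin ligase that restrains the RNA sensor RIG-I, had 82.1, 104, 88.4, 102 and 104 CPM in VB mice, against 201, 184, 115, 128 and 159 CPM in vehicle mice, and VB mice 2 and 5 were nearest to vehicle mouse 3 (log2 change -0.71, SE 0.13, edgeR adjusted p = 0.0189).
Cdk20, a cell cycle related kinase, had 5.71, 5.2, 5.65, 5.83 and 4.39 CPM in VB mice, against 8.94, 7.46, 8.76, 8.37 and 8.33 CPM in vehicle mice (log2 change -0.64, SE 0.12, edgeR adjusted p = 0.0229).
Its VB mice were all below its vehicle mice.
Pxdc1 had 65.9, 67.3, 58.6, 58.4 and 58 CPM in VB mice, against 104, 109, 88.1, 81.7 and 78 CPM in vehicle mice, also with no overlap (log2 change -0.58, SE 0.11, edgeR adjusted p = 0.0236).

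**Figure D3:**
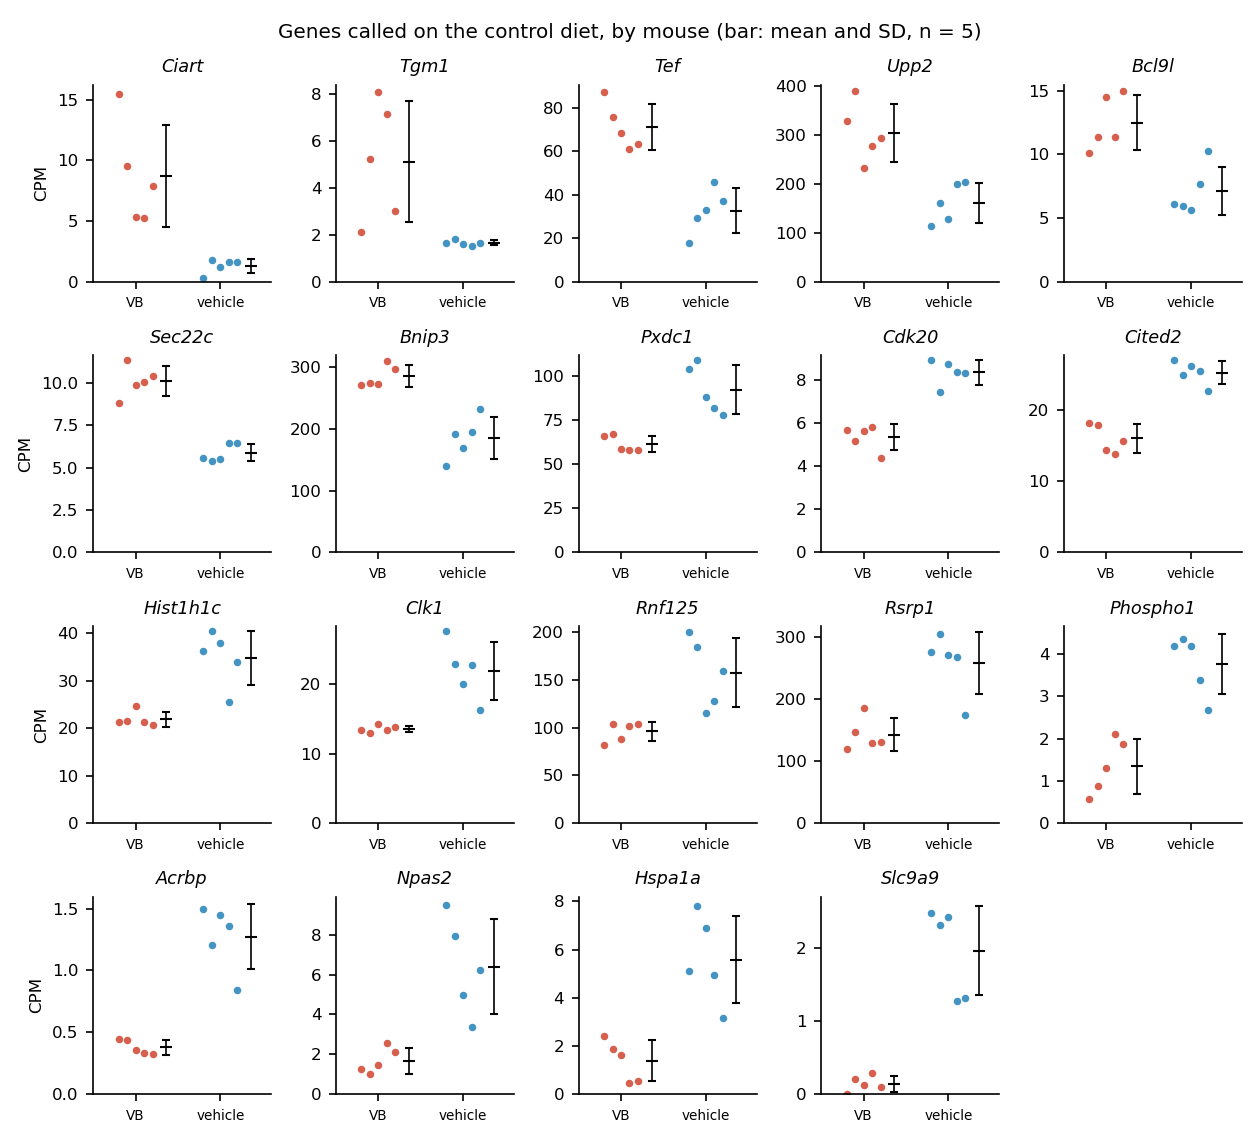
Expression in CPM (y axis, from 0) of the 19 called genes in each control diet mouse, VB left of vehicle, with mean and SD (n = 5), ordered from the largest rise to the largest fall. The groups overlap in Bcl9l and Rsrp1 and in none of the other 17 genes, which were chosen by their test in the same mice. Over all genes tested, the groups were apart for 1.87% with VB above and 2.01% with VB below.

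The genes just outside the threshold had edgeR adjusted p from 0.0502 to 0.0549.
Among the 10 nearest, 7 were higher in VB: Efhd2, a calcium-binding protein (0.50 on the log2 scale), the ubiquitin ligase genes March7 (0.49) and Cul3 (0.44), the lysosomal sorting receptor Igf2r (0.47), the ribosomal RNA processing gene Rcl1 (0.39), the cytochrome P450 reductase Por (0.76) and the aspartate aminotransferase Got1 (0.61).
The 3 lower in VB were Mup12 (-1.41), the base excision repair polymerase Polb (-0.38) and the N-acetyltransferase Nat8 (-1.12).
Groups overlapped in Got1 and in none of the other 9, but these genes were chosen by their p in the same mice. Over all genes tested, the groups were apart for 1.87% with VB above and 2.01% with VB below.
Erdr1 and Dhrs3, a retinaldehyde reductase, were called by DESeq2 and not by edgeR.
Erdr1 had 0.0446, 0.52, 0.431, 0 and 0 CPM in VB mice, against 17.4, 7.41, 11, 11 and 3.74 CPM in vehicle mice.
All VB mice were at or under 13 counts and all vehicle mice at 71 or more, with a wide spread among them (log2 change -5.53 (SE 1.2), edgeR adjusted p = 0.0665, DESeq2 adjusted p = 0.00155).
Dhrs3 had 103, 109.9, 120.2, 108 and 112 CPM in VB mice, against 139, 135, 137, 135 and 136 CPM in vehicle mice, tight and apart (log2 change -0.30 (SE 0.07), edgeR adjusted p = 0.0654, DESeq2 adjusted p = 0.000439).

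None of the carnitine genes passed in edgeR. The carnitine importer Slc22a5 had 43, 15.4, 22.8, 28 and 27.8 CPM in VB mice, against 13.9, 17.3, 18.1, 26.1 and 28.1 CPM in vehicle mice.
VB mouse 1 was highest and the groups overlapped (log2 change 0.40 (SE 0.23), 95% interval -0.07 to 0.87, edgeR adjusted p = 0.546).
Bbox1, which converts gamma-butyrobetaine to carnitine, had 136, 134, 134, 141 and 138 CPM in VB mice, against 107, 134, 127, 138 and 139 CPM in vehicle mice, with a log2 change of 0.08 and a 95% interval of -0.10 to 0.26.
The earlier enzymes of carnitine synthesis, Tmlhe and Aldh9a1, had log2 changes of 0.01 (-0.21 to 0.24) and -0.01 (-0.17 to 0.16).
Of 7 tested genes of carnitine synthesis and uptake, Slc16a9 alone had an unadjusted p under 0.05 (log2 change 0.61 (SE 0.27)), higher in VB, and none had without vehicle mouse 1.
Cpt1a, the rate-limiting carnitine palmitoyltransferase of fatty acid entry, had 279.8, 252.4, 264, 268 and 321 CPM in VB mice, against 139, 173, 153, 218 and 258 CPM in vehicle mice.
Vehicle mouse 5 overlapped the VB mice, and the log2 change of 0.56 (SE 0.151) had edgeR adjusted p = 0.126 and DESeq2 adjusted p = 0.0349.
Of 8 genes listed for carnitine acyl transfer and transport, Cpt1a and Acot12 had an unadjusted p under 0.05, both higher in VB. Acot12 encodes an acetyl-CoA hydrolase and not a carnitine acyltransferase.
Log2 changes were 0.14 (-0.04 to 0.33) for the inner membrane transferase Cpt2, 0.20 (-0.16 to 0.57) for the acetyltransferase Crat and 0.07 (-0.18 to 0.32) for the mitochondrial shuttle Slc25a20.

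Fatty acid oxidation genes leaned higher in VB, and edgeR called none of them.
Of 20 genes of mitochondrial beta-oxidation, 18 had a higher mean in VB and 5 an unadjusted p under 0.05, all 5 higher and with Acsm3 (0.33), Eci2 (0.33), Acadl (0.23) and Acad11 (0.27) among them, with a median log2 change of 0.10.
Without vehicle mouse 1 the 5 were 1, while the genes higher among all tested went from 715 to 453.
Of 24 targets of the fatty acid sensor PPARA, 21 had a higher mean and 4 passed at that level, with a median of 0.20, and 2 without vehicle mouse 1 or in a fit of the 10 control diet mice alone.
Ppara itself had log2 change 0.44 (SE 0.16) and edgeR adjusted p = 0.286, and vehicle mice 4 and 5 lay inside the VB range.
In the peroxisomal list 2 of 13 were higher, or 1 without vehicle mouse 1, and Abcd2, a peroxisomal very-long-chain fatty acid transporter, had 14.6, 15.8, 14.7, 12.1 and 11.2 CPM in VB mice, against 3.41, 9.98, 6.07, 6.43 and 5.69 CPM in vehicle mice, with no overlap (log2 change 1.11 (SE 0.25), edgeR adjusted p = 0.0654, DESeq2 adjusted p = 0.00838).
The lipases of stored fat, Pnpla2 and Lipe, were higher in every VB mouse than in every vehicle mouse, with log2 changes of 0.49 (SE 0.11) and 0.64 (SE 0.14) and edgeR adjusted p of 0.0623 and 0.0551 (DESeq2 0.00513 and 0.00597).
The droplet proteins Cidec and Plin2 had log2 changes of 0.80 (SE 0.50) and -0.08 (SE 0.12), with adjusted p of 0.594 and 0.855.
Of 21 lipid droplet genes, Pnpla2 and Lipe were the only ones with an unadjusted p under 0.05. A fit of the 10 control diet mice alone had 6 of 20 higher at that level, 2 of them called, against 1048 of all 12168 genes.

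Cholesterol genes leaned the other way.
Of 25 genes of cholesterol synthesis and uptake, 24 had a lower mean in VB and 9 an unadjusted p under 0.05, all lower, and the median log2 change was -0.28.
Among them were the mevalonate pathway genes Pmvk (-0.54 (SE 0.16)) and Mvd (-0.71 (SE 0.21)) and the later Tm7sf2 (-0.27 (SE 0.09)) and Lss (-0.39 (SE 0.14)).
None was called by edgeR or DESeq2, and Tm7sf2 was apart between groups while Pmvk, Mvd and Lss overlapped.
In lipogenesis 3 of 21 were lower (Elovl3, Agpat2 and Mlxipl) and 1, the phosphatidate phosphatase Lpin1, higher, at 683, 1011, 734, 997 and 654 CPM in VB mice, against 336, 593, 569, 367 and 561 CPM in vehicle mice (log2 change 0.75 (SE 0.20), edgeR adjusted p = 0.12, DESeq2 adjusted p = 0.0217).
Bile acid genes were mixed, with 2 higher and 3 lower of 17.
Without vehicle mouse 1 the lipogenesis counts were 1 lower and 1 higher and the bile acid counts 0 higher and 2 lower, and without vehicle mouse 5 the bile acid counts were 2 higher and 1 lower.

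Major urinary proteins, pheromone carriers that male liver makes under growth hormone, were lower with VB.
Of 21 Mup genes tested, 20 had a lower mean in VB and 13 an unadjusted p under 0.05, all lower, with a median log2 change of -0.86 on the CPM scale, and edgeR called none.
Their paralogs are so alike that reads may be divided among them, so their sum is firmer: Mup genes took 7.56% ± 1.44 of all counts in VB mice and 11.1% ± 1.90 in vehicle mice (SD, n = 5 each; exact two-sided permutation test, p = 0.0238, adjusted over 3 shares p = 0.0357).
The ranges overlapped, at 6.25% to 9.82% in VB mice and 8.87% to 13.7% in vehicle mice.
Mup12 had 134, 135, 177, 210.0 and 359 CPM in VB mice, against 829, 362, 518, 368 and 623 CPM in vehicle mice, with no overlap (log2 change -1.41 (SE 0.29), edgeR adjusted p = 0.0522).
In DESeq2, 6 Mup genes were called, all lower, and with the clock score in the fit 0 of the 21 were lower at an unadjusted p under 0.05, 1 was higher and the median log2 change was 0.09.
Left out in turn, each of VB mice 1 to 4 and vehicle mouse 1 lifted the adjusted p of the share over 0.05. With any 1 control diet mouse left out, the difference of -3.57 percentage points ran from -4.13 to -2.91.

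Other male-biased genes leaned the same way: 7 of 19 were lower in VB at an unadjusted p under 0.05 and none higher, with a median log2 change of -0.28, and DESeq2 called 1.
Moxd1, a male-biased monooxygenase-like gene, had 0, 0.6, 0.0784, 0.141 and 2.01 CPM in VB mice, against 43.5, 1.05, 29.3, 1.13 and 8.28 CPM in vehicle mice, so that vehicle mice 2 and 4 lay between VB mice 2 and 5 (log2 change -4.89 (SE 1.44), edgeR adjusted p = 0.196, DESeq2 adjusted p = 0.0125).
Cyp4a12b, a male fatty acid hydroxylase, was below all vehicle mice in all VB mice (log2 change -0.55 (SE 0.17)).
Of 8 female-biased genes tested, of 15 listed, 3 were higher in VB and none lower.
The steroid hydroxylase Cyp2a4 had 2.59, 0.761, 0.784, 0.612 and 0.503 CPM in VB mice, against 0.0517, 0.263, 0.0537, 0.136 and 0.105 CPM in vehicle mice, at 11 to 58 counts in VB mice and 1 to 5 counts in vehicle mice (log2 change 3.04 (SE 0.68), edgeR adjusted p = 0.0623).
Cyp17a1, a steroidogenic enzyme, had 13.9, 24.1, 14.9, 24.2 and 13.6 CPM in VB mice, against 3.77, 12.8, 4.03, 12.1 and 7.28 CPM in vehicle mice, with no overlap (log2 change 1.18 (SE 0.30), edgeR adjusted p = 0.106).
DESeq2 called both, at adjusted p = 0.0031 and 0.0125.

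Among hormone and stress targets, 6 of 15 genes in the glucocorticoid target list were higher at an unadjusted p under 0.05 and none lower, with a median log2 change of 0.35.
They were Per1, Klf9, Fkbp5, Mt1, Mt2 and Nr3c1, of which Per1 is also in the clock lists and Nr3c1 encodes the glucocorticoid receptor itself.
Fkbp5, a chaperone of the glucocorticoid receptor, had 135, 131, 94.2, 136 and 160.3 CPM in VB mice, against 20.9, 43.6, 51.5, 74.2 and 106 CPM in vehicle mice, and vehicle mouse 5 lay inside the VB range (log2 change 1.14 (SE 0.35), edgeR adjusted p = 0.212).
The metallothionein Mt1, which binds zinc and copper, had 452, 140.3, 102, 267 and 239 CPM in VB mice, against 10.1, 91.4, 79.8, 73.8 and 73.6 CPM in vehicle mice.
Vehicle mouse 1 was far below and VB mouse 1 far above the rest, though the groups did not overlap (log2 change 1.87 (SE 0.62), edgeR adjusted p = 0.267).
Klf9, a transcription factor, was higher in all VB mice than in all vehicle mice (log2 change 0.48 (SE 0.11), edgeR adjusted p = 0.0756, DESeq2 0.0104), as was the zinc exporter Slc30a1 (0.58 (SE 0.15), edgeR 0.0953, DESeq2 0.0217).
In the amino acid response list 4 of 11 were lower, with Asns and Atf5 among them, and 1 was higher, the lipoprotein receptor Vldlr (log2 change 1.92 (SE 0.47), edgeR adjusted p = 0.0925, DESeq2 adjusted p = 0.0107).
The 4 became 1 without vehicle mouse 1.

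Ribosomal protein genes had slightly lower means in VB, and edgeR called none.
Of 30 genes of the cytosolic ribosome, 29 had a lower mean in VB and 10 an unadjusted p under 0.05, all lower, with a median log2 change of -0.22.
Rpl4 and Rps2, which encode large and small subunit proteins, were lower in all VB mice than in all vehicle mice (log2 changes -0.23 (SE 0.08) and -0.31 (SE 0.12)).
The 10 became 4 without vehicle mouse 1 and 22 in a fit of the 10 control diet mice alone. The genes lower among all tested went from 639 to 433 and 1054 in the same fits.
None of 29 nuclear genes of oxidative phosphorylation and none of 13 mitochondrially encoded genes reached an unadjusted p under 0.05, and none was called by edgeR or DESeq2.
In a fit of the 10 control diet mice alone, 5 of the 29 nuclear genes were lower at that level.
The mitochondrially encoded genes took 2.41% ± 0.261 of counts in VB mice and 2.37% ± 0.218 in vehicle mice (SD, n = 5 each; exact two-sided permutation test, p = 0.754).
The 10 most abundant genes took 17.3% ± 0.506 in VB mice and 18.9% ± 1.06 in vehicle mice (SD, n = 5 each; exact two-sided permutation test, p = 0.0159, adjusted p = 0.0357).

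**Figure D4:**
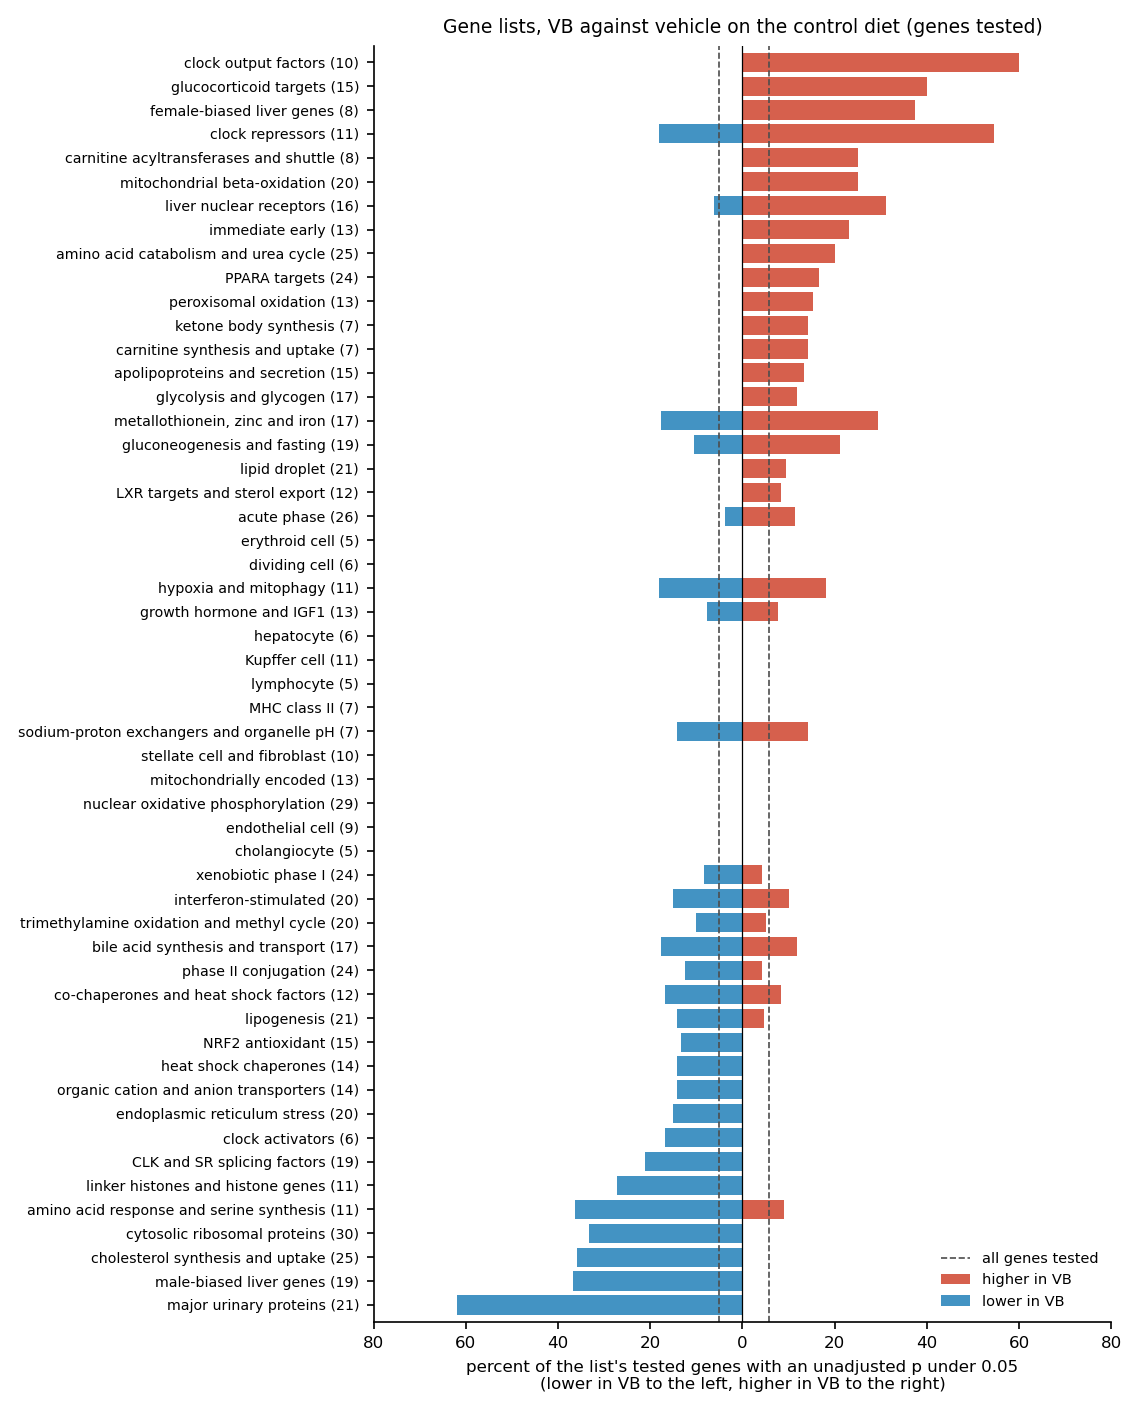
Percent of the tested genes of each list with an unadjusted p under 0.05 (x axis), higher in VB to the right and lower in VB to the left, for lists with at least 5 tested genes (number in brackets), with the percentages over all genes tested, 5.67 higher and 5.06 lower, as dashed lines. Clock output genes reach 60.0 percent higher, and major urinary proteins 61.9 percent lower.

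Cell type markers of liver were present, hepatocyte genes by far the most abundant.
None of 6 hepatocyte, 11 Kupffer cell, 10 stellate cell and fibroblast, 9 endothelial, 5 cholangiocyte, 5 lymphocyte, 2 neutrophil, 5 erythroid, 3 adipocyte and 6 dividing cell markers that were tested had an unadjusted p under 0.05.
In a fit of the 10 control diet mice alone, 2 hepatocyte, 1 endothelial and 1 adipocyte marker were higher and 1 erythroid marker lower at that level.
The summed level of the 6 hepatocyte markers was 43100 to 46500 CPM in VB mice, against 40300 to 45400 CPM in vehicle mice, and that of the 11 Kupffer cell markers 234 to 317 CPM in VB mice, against 226 to 296 CPM in vehicle mice.
Erythroid markers summed to 821 to 1360 CPM in VB mice, against 776 to 2260 CPM in vehicle mice.
Lymphocyte markers summed to 3.20 to 6.17 CPM in VB mice, against 2.99 to 6.56 CPM in vehicle mice.
Of the pancreas list, Cela1 alone was tested and was lower in VB (log2 change -0.54), while Prss2, Pnlip and Ctrb1 had no count in any of the 10 mice, and the other 2 were at most 0.0905 CPM.

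Most called genes had an estimate of opposite sign in Western diet mice.
Of the 19, 16 had the opposite sign there, against 57.8% of all 12616 genes and 75.0% of the 1354 genes with an unadjusted p under 0.05 on the control diet, and 8 passed an adjusted p under 0.05 in the Western diet comparison.
The test of the difference itself, the VB effect on the Western diet minus that on the control diet, called 964 genes (7.64%), 17 of the 19 among them, all but Slc9a9 and Phospho1.
The control diet mice that chose the 19 genes also enter this test, so that count supports nothing by itself.
Without Western diet VB mouse 1, whose labels disagree, 15 of the 19 had the opposite sign, 8 passed on the Western diet and 18 were called for the difference, all but Phospho1 (Slc9a9 came to 0.0366).
Hspa1a changed by -2.0 on the control diet and by 3.05 on the Western diet (log2, VB minus vehicle; edgeR adjusted p of the difference 0.0000116).
For Npas2 the log2 changes were -1.93 on the control diet and 2.03 on the Western diet (0.000688), for Ciart 2.74 and -0.72 (0.000688), for Tef 1.12 and -0.64 (0.000651), for Sec22c 0.78 and -0.56 (0.0000275) and for Bnip3 0.62 and -0.68 (0.000209).
Slc9a9 was lower with VB on both diets, at -3.77 and -1.53, where the Western diet value did not pass (edgeR adjusted p = 0.0934).
Rnf125 and Hist1h1c had values near 0 on the Western diet, at -0.06 and 0.03, and at -0.06 and -0.05 without Western diet VB mouse 1.

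**Figure D5:**
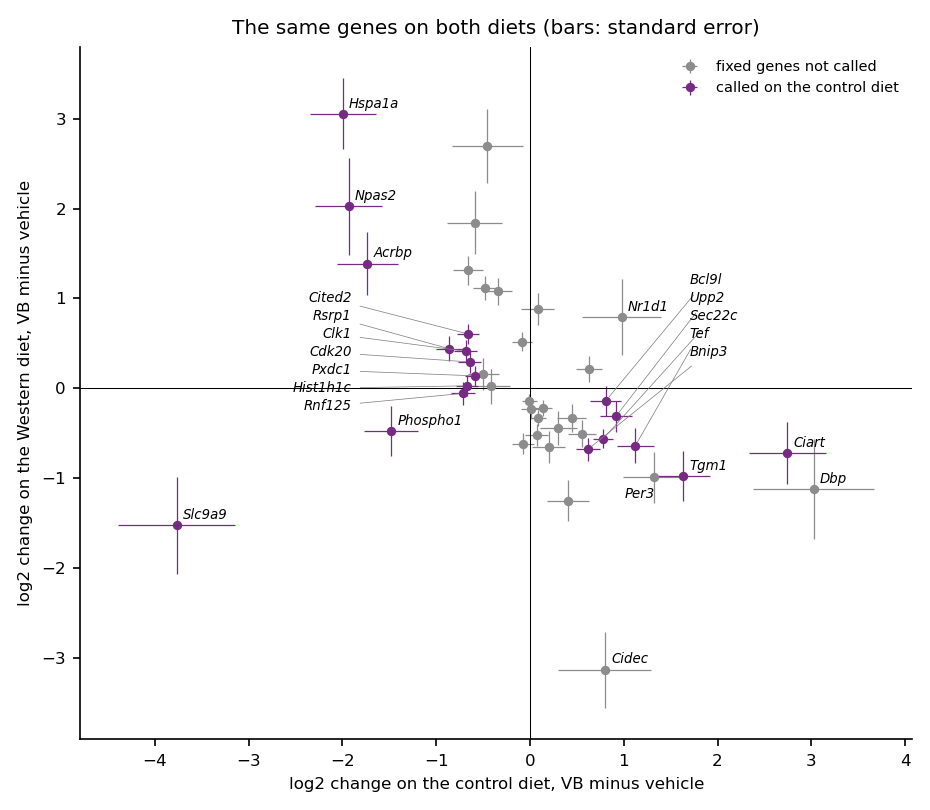
Log2 change with VB on the control diet (x axis) and on the Western diet (y axis) of the 19 called genes and of 25 uncalled genes of the carnitine, lipid, clock and heat shock pathways, with standard errors. Hspa1a, Npas2 and Acrbp lie high on the left and Ciart and Tgm1 low on the right. Slc9a9, Phospho1 and Rnf125 have estimates below 0 on both diets. On the Western diet their edgeR adjusted p were 0.0934, 0.358 and 0.872, and Rnf125 was near 0 at -0.06.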

How the data were processed

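The values are raw read counts per gene, deposited by the authors as 1 table with a column for each lane of each mouse. Per the submitters' processing notes the build was GRCm38, and no aligner or counter is named there. The library kit was Illumina TruSeq RNA per the labels' protocols, which give no strand setting, so reads of overlapping genes may be mixed. Besides Phospho1, other called genes overlap annotated genes that were not tested. On the opposite strand, such genes overlap Ciart over 3749 bases, Tgm1 over 12274 and Hspa1a over 2225, among others. The 2 lanes of each mouse were summed, and the number before the diet in the titles was taken as the mouse.

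Genes passing filterByExpr (minimum count 10, minimum total 15) were scaled by TMM and fitted over all 4 groups with edgeR 4.0.16's robust quasi-likelihood test in R 4.3.3, with Benjamini-Hochberg adjustment over 12616 genes and a threshold of 0.05. A standard error is the absolute log2 change divided by the square root of F. DESeq2 1.42.0 and limma 3.58.1 were alternatives. Shares of counts were compared by exact permutation over the 252 splits, where the smallest p is 0.00794. P-values measure the spread between the mice given, and the labels do not say whether mice shared cages or litters.

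Named are all called genes, the 10 nearest uncalled genes, up to 4 members of each list with the smallest unadjusted p under 0.05, fixed genes of the carnitine, lipid, clock and heat shock pathways, and the 10 genes with the smallest DESeq2 adjusted p among those it alone called; some genes that this rule names are not reported here. Erdr1's and the other raw counts given were chosen after their values were seen. The members and gene lists were chosen with earlier results of these data known. Promoters are RefSeq's on GRCm38.p6, and matched 6 of the 7 called genes that rose and 9 of the 12 that fell. Gene positions are from GENCODE M21, where 12275 of the 12616 tested symbols were found. Same-numbered mice did not deviate together in every pair, and the numbers were not used as pairs in the main fit. No column of the table was left unused.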

Additional observations from a re-analysis of the deposited data

Results flagged for a closer look

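In 3 of 122 groups of 5 mice examined, 1 mouse stood apart from the other 4 by Dixon's criterion, which chance flags in about 1 in 20 groups. Hist1h1c was at 24.6 CPM in VB mouse 3, against 20.6 to 21.4 CPM in the other VB mice. Rsrp1 was at 174 CPM and Clock at 27.6 CPM in vehicle mouse 5, against 268 to 305 CPM and 21 to 22.7 CPM in the other vehicle mice. The part of these mice in the results was measured by leaving them out.

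The edgeR test of the difference in VB effect between the diets called 964 of 12616 genes (7.64%). Among them were 17 of the 19 called genes and 20 of the 28 pathway genes examined whatever their values. Hspa1a, Npas2 and Tef are in both sets. The control diet mice that chose the 19 also enter this test, so that count supports nothing by itself. The pathway genes were chosen with earlier results of these data known. Differences are Western diet minus control diet, on the log2 scale. Among called genes that were higher with VB on the control diet, the differences were -3.47 for Ciart, -2.60 for Tgm1, -1.76 for Tef, -1.34 for Sec22c, -1.3 for Bnip3, -1.23 for Upp2 and -0.95 for Bcl9l. Among those lower with VB they were 5.05 for Hspa1a, 3.96 for Npas2, 3.12 for Acrbp, 1.3 for Rsrp1, 1.26 for Cited2, 1.10 for Clk1, 0.94 for Cdk20, 0.72 for Pxdc1, 0.70 for Hist1h1c and 0.66 for Rnf125.

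Carnitine and lipid genes differed by -1.65 for Slc22a5, -0.42 for Bbox1, -1.06 for Cpt1a, -0.85 for Crat, -0.59 for Slc25a20, -0.77 for Ppara, -3.93 for Cidec and -0.54 for Plin2. Clock genes differed by 2.43 for Arntl, 0.60 for Clock, 1.98 for Nfil3, -2.32 for Per3 and -4.15 for Dbp. Heat shock genes differed by 3.15 for Hspa1b, 0.80 for Hsph1, 1.42 for Dnajb1 and 1.59 for Bag3. Without Western diet VB mouse 1, of which 1 library has labels that disagree, 18 of the 19 called genes and 15 of the 28 pathway genes passed. Bbox1 (adjusted p = 0.0549), Crat (0.0636), Plin2 (0.074), Ppara (0.0573) and Slc25a20 (0.0502) then missed the threshold.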

How the results depend on the processing

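Of up to 157 named genes that a setting tested, none changed sign under the other scalings, filters or tools. The count of 19 stayed within 1.5 times under RLE scaling, both filters, lane 1 and the heat shock score. It was 29 with upper-quartile scaling, 30 with Mup genes out of the library sizes, 163 with DESeq2, 261 with limma-voom, 66 with only the 10 control diet mice, 36 with lane 2, 52 without Western diet vehicle mouse 4, 3 for a fold of at least 1.2 and 0 with the clock score. Leaving out 1 control diet mouse gave 6 to 66. With mouse number as a replicate block it was 65, with all 19 kept. Of the 19, 14 were kept with only the 10 control diet mice (Hspa1a, Rnf125, Tef, Tgm1 and Upp2 were lost), 13 with lane 1 (without Acrbp, Bcl9l, Cdk20, Clk1, Npas2 and Phospho1), 15 with lane 2 (without Acrbp, Cdk20, Hspa1a and Phospho1), 14 with the heat shock score (without Acrbp, Bcl9l, Bnip3, Cdk20 and Upp2), 3 for the fold of at least 1.2 (Ciart, Sec22c and Slc9a9) and 17 without Western diet VB mouse 1 (without Bcl9l and Bnip3), an alternative chosen after seeing the data. Acrbp was not tested under the filter at a mean of 1 CPM. Correlations of same-numbered mice were -0.031 to 0.151, and those of mice with different numbers -0.172 to 0.072. Whether the number marks a pairing was not tested. With the clock score the signs turned for Npas2 (0.0090), Slc22a5 (-0.0056), Bbox1 (-0.073), Crat (-0.067), Slc25a20 (-0.15), Arntl (0.50), Clock (0.24), Per2 (-0.28), Nfil3 (1.1e-05), Acot3 (-0.27), Elovl3 (0.38), Abcg8 (-0.083), Gys2 (-0.094), Mat1a (-0.32), Hist1h4h (0.50), Lbp (-0.036), Serpina3m (-0.30) and Ppard (0.025). Values near 0 also turned: Tmlhe to -0.048 with lane 2 and -0.050 with the heat shock score, Aldh9a1 to 0.0072 with lane 2, and, with 1 mouse left out, Tmlhe (-0.065 to 0.054 over the 10 fits), Aldh9a1 (-0.05 to 0.036) and Hsph1 (-0.034 to 0.17). The difference in share was -4.13 to -2.91 percentage points for Mup genes, -1.93 to -1.25 for the top 10 genes and -0.037 to 0.143 for mitochondrially encoded genes with 1 mouse left out, an alternative chosen after seeing the data, as were the list counts without vehicle mouse 1. The causes were not tested. Depth limits Slc9a9, Acrbp and Cyp2a4, with at most 58 counts a mouse.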
